A study of Homo sapiens with 8 samples.

Results

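F-box proteins are the substrate-binding subunits of SCF ubiquitin ligases, and the genes described here are the rows of the count table whose symbol starts with FBXL, FBXO or FBXW, with symbols of pseudogenes left out. There were 57 such genes among 13841 rows, of which 15 were FBXL, 33 FBXO and 9 FBXW. Of the 57, 51 had enough counts to be tested (13 FBXL, 31 FBXO and 7 FBXW). The rule used symbols only and no measured value.

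RNA was measured in A549 cells, an established human line from a lung adenocarcinoma. All cells had been stretched cyclically (15% elongation at 15 cycles per min for 24 h), kept for 6 days and then sorted by β-galactosidase, an enzyme activity used as a marker of senescence. The 4 libraries of β-galactosidase-positive cells, which carry the label senescent, are called positive 1, 3, 4 and 5, and the 4 of β-galactosidase-negative cells, with the label non-senescent, are negative 2, 6, 7 and 8. Unstretched cells were not analysed here, so stretch is shared by both groups and is not compared. A549 is 1 tumour line, and positivity for 1 enzyme stands for the senescent state. Whether each library of a group had its own culture is not stated in the labels, and p-values here therefore cover no more than the spread among the 8 libraries, which may be technical.

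In an SCF ligase the scaffold CUL1 holds the RING protein RBX1 at one end, and at the other the linker SKP1, which grips the F-box motif. The rest of the F-box protein binds the substrate, through leucine-rich repeats in the FBXL subfamily, WD40 repeats in FBXW and various other domains in FBXO. SCF ligases control the turnover of cyclins, CDK inhibitors and signalling proteins, so these adaptors are often studied in cells leaving the cell cycle. The abundance of their transcripts says nothing by itself of ligase activity, which also depends on NEDD8 attached to the cullin and on phosphorylation of the substrate.

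Totals ranged from 5634961 counts in positive 1 to 7990839 in negative 2. These 2 libraries stood apart from the rest: of all tested rows, 47.8% had their highest or lowest value in positive 1 and 55.6% in negative 2, against 11% to 21.0% in each of the other 6. The epithelial and A549 markers had a row for 12 of 12 genes, and their summed level was 8042 to 9458 CPM (TMM-scaled counts at a common library total) in positive and 10074 to 11983 CPM in negative libraries. The sum rests most on genes of high level, such as AKR1B10 (means 2128 and 2700 CPM) and ALDH1A1 (1936 and 2474 CPM). The 11 tested markers were all below 0 on the log2 scale, with a median of -0.31. They ranged from -0.52 (KRT8) to -0.04 (KRT7). The groups did not overlap for 2 of the 11, AKR1B10 and NQO1 (9.14% of all rows). Summed fibroblast markers (6 of 8 with a row) were at 19.4 to 20.5 CPM in positive and 18.8 to 22.2 CPM in negative libraries, and summed leukocyte markers (4 of 7 with a row) at 70.7 to 75.7 and 57.9 to 75.6 CPM. The 1 endothelial marker with a row, of 5, reached at most 1.18 CPM. The part of these marker levels in the results on F-box genes was not tested. In RNA from sorted bulk cells, fewer cells with a transcript and less transcript per cell cannot be told apart.

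Summed over the family, the F-box genes were at overlapping levels in positive and negative cells, and a few members stood out in either direction. With edgeR's quasi-likelihood test and Benjamini-Hochberg adjustment at 0.05, no member was past the threshold, as was so for every tested row (0% called). At an unadjusted p under 0.05 there were 5 of 51 members (9.8%), against 14.4% of all tested rows. FBXL8 and FBXL19 were higher in positive cells (7.52% of all rows were), and FBXW8, FBXW11 and FBXO21 were lower (6.85% of all rows). Scaling by upper quartile gave 3 higher and 0 lower members, and scaling by library totals alone gave 4 and 0. The groups did not overlap for 4 of 51 members (7.84%), against 9.14% of all rows. These were FBXL8, FBXL19 and FBXO45 on the higher side (5.0% of all rows) and FBXO21 on the lower (4.14%). Both shares were near those of all rows, and nothing about the family is read from them. DESeq2's Wald test with Benjamini-Hochberg adjustment called 1 member, FBXL8, against 0.458% of all rows (52 of 11343), and limma with voom weights called none.

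On the log2 scale, 25 members were above 0 (48.1% of all rows) and 26 below (51.9% of all rows), with a median fold change of -0.01 beside -0.02 over all tested rows. Scaling by totals alone moved the median of all rows by 0.12, to 0.10, and all values below are TMM-scaled. The fold changes of 49 of 51 members were smaller than 1 on the log2 scale in either direction. The 95% interval lay wholly within ±1 for 36 members, and its median half-width was 0.54, the same as over all rows. Summed over all 57 genes the F-box level was 1312, 1509, 1459 and 1388 CPM in positive 1, 3, 4 and 5, and 1533, 1474, 1418 and 1374 CPM in negative 2, 6, 7 and 8. The ranges overlapped, and the ratio of the means was 0.977. The count of a gene in an amplicon library depends on its own amplicon, so levels were compared between libraries and not between genes. A sum over genes gives most weight to those with high counts, such as FBXO7 and FBXL5.

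**Figure D1:**
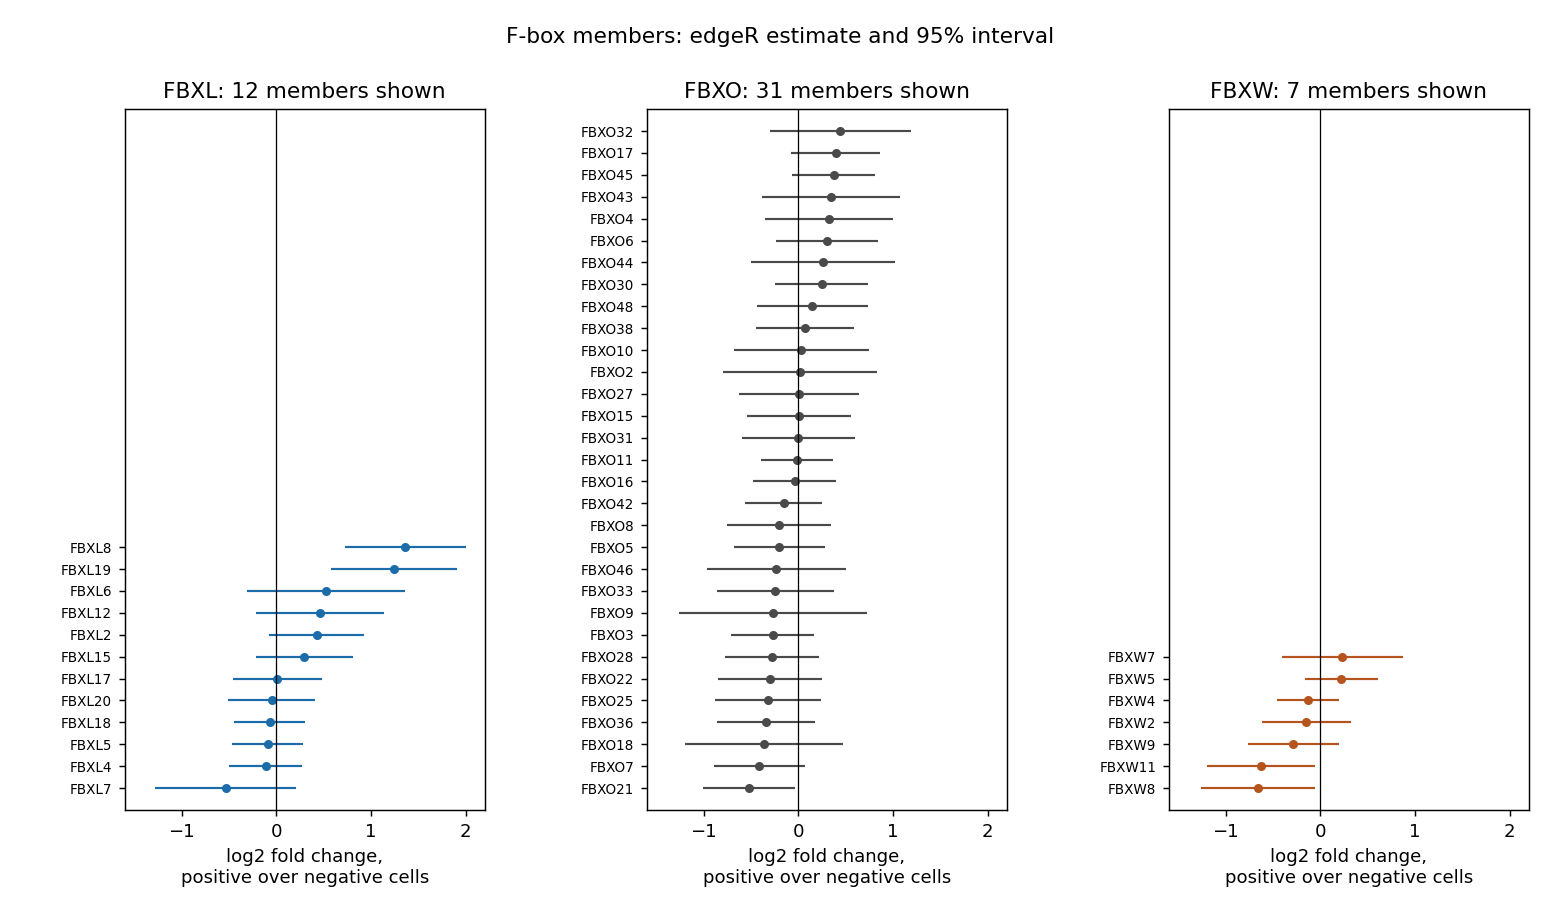
Log2 fold change (positive over negative cells) of 50 of the 51 tested F-box genes, by subfamily; points are edgeR estimates and bars 95% intervals over 4 against 4 libraries. Only the intervals of FBXL8, FBXL19, FBXO21, FBXW8 and FBXW11 lie wholly on one side of 0.

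By subfamily, FBXL had 8 tested members above 0 and 5 below, with a median log2 fold change of 0.29, FBXO 15 above and 16 below with a median of -0.01, and FBXW 2 above and 5 below with a median of -0.15. With totals alone these medians were 0.38, 0.11 and -0.03, so the FBXO median changed sign. Differences between the subfamilies were not tested, since members are not replicates. The summed FBXL level was 379, 418, 412 and 390 CPM in positive 1, 3, 4 and 5 and 358, 395, 384 and 357 CPM in negative 2, 6, 7 and 8. Positive 1 and 5 lay within the range of the negative libraries. Summed FBXO levels were 671 to 706 CPM in positive and 682 to 813 CPM in negative libraries, and summed FBXW levels 259 to 385 and 314 to 367 CPM, with overlap in both.

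FBXL8, a leucine-rich repeat adaptor known to act on cyclin D3, had the largest fold change of the family. Its gene, ENSG00000135722.8, lies on the + strand of chr16 at 67159931 to 67164570 (GRCh38, GENCODE v29). FBXL8 was at 34.9, 23.1, 26.0 and 21.8 CPM in positive 1, 3, 4 and 5, and at 5.23, 13.2, 8.8 and 13.8 CPM in negative 2, 6, 7 and 8. Every positive library was above every negative one, with the highest value in positive 1 and the lowest in negative 2. The means were 26.4 ± 5.89 and 10.3 ± 4.03 CPM (SD, n = 4 each), and the log2 fold change was 1.36 ± 0.30 (SE; 95% interval 0.72 to 2.01) or 2.57-fold. In edgeR's quasi-likelihood test the unadjusted p was 0.000555 and the adjusted p 0.309; over all alternatives the adjusted p ranged from 0.017, in DESeq2, to 0.478. Leaving out both libraries that stood apart gave 1.0 on the log2 scale.

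The FBXL8 gene overlaps TRADD, an adaptor of the TNF receptor, on the other strand, and a readthrough gene on its own strand. The sources used here do not give the strand use of the counting, so reads from the overlap cannot be assigned with certainty. TRADD was at 2.31 ± 0.727 CPM in positive and 3.67 ± 0.876 CPM in negative cells (SD, n = 4 each), with a log2 fold change of -0.66 (95% interval -1.39 to 0.07). Its estimate was thus of the opposite sign to that of FBXL8.

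FBXL19 is a paralog of the histone demethylases KDM2A and KDM2B that keeps their CXXC zinc finger, which binds unmethylated CpG DNA. Its gene, ENSG00000099364.16, lies on the + strand of chr16 at 30923055 to 30948783. FBXL19 was at 4.0, 3.92, 3.06 and 4.19 CPM in positive 1, 3, 4 and 5, and at 1.45, 1.35, 2.01 and 1.57 CPM in negative 2, 6, 7 and 8. The groups did not overlap, and the 4 values of each were close together. These levels rest on 23 to 32 counts per positive and 8 to 13 per negative library, and FBXL19 drops out when at least 50 counts are required in 4 libraries. The means were 3.8 ± 0.501 and 1.6 ± 0.288 CPM (SD, n = 4 each), and the log2 fold change was 1.24 ± 0.31 (SE; 95% interval 0.57 to 1.9), or 2.36-fold. edgeR's quasi-likelihood test gave an unadjusted p of 0.00151 and an adjusted p of 0.309, with 0.1 to 0.478 over the alternatives. The estimate was between 1.16 and 1.36 under all alternatives that gave one, and 1.19 without both positive 1 and negative 2. An antisense gene, FBXL19-AS1, and a gene on its own strand, AC135048.1, overlap FBXL19 and were not analysed here.

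To show what the start regions of an outlying gene on either side look like, the 250 bases before the transcription start of FBXL19 (higher in positive cells) and FBXW8 (lower) follow, 5′ to 3′ on the strand of the gene, from RefSeq on GRCh38.p14. FBXL19 is taken from chr16:30922601-30922850 and FBXW8 from chr12:116910700-116910949, both on the + strand. Capitals mark matches to the motifs searched on both strands: GGGCGG (the GC box), CCAAT (the CCAAT box), CACGTG (an E-box), TATAAA (the TATA box), TGACTCA (an AP-1 motif) and TGACGTCA (a cAMP response element).
FBXL19: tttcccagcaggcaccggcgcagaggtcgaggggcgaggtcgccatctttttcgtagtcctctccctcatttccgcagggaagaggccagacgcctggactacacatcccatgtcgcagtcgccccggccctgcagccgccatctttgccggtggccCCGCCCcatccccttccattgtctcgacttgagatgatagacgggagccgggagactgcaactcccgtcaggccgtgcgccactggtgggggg
FBXW8: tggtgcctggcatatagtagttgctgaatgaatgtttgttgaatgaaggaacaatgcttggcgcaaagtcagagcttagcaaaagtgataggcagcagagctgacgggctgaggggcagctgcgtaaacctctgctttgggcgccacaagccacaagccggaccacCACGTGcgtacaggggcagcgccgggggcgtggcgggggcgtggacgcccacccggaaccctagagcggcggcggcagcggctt
The FBXL19 stretch holds 1 GC box, on the opposite strand, and is 65.2% G or C. The FBXW8 stretch holds 1 E-box, on the strand of the gene, and is 61.2% G or C. GGGCGG was found in 42.6% and CACGTG in 6.34% of 35116 RefSeq promoters of the same length. The set of promoters used here had an entry for 43 of the 57 members, and none for FBXL8. GGGCGG occurred in 29 of these 43 (67.4%), CCAAT in 11 (25.6%, against 32.0% of all) and CACGTG in 4 (9.3%). TATAAA occurred in 1 (2.33%, against 10.7%), TGACTCA in 0 (against 4.2%) and TGACGTCA in 1 (2.33%, against 1.65%). The median G and C content was 67.6% over member promoters and 58.0% over all. Such matches describe the letters only and are not evidence of binding.

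The other FBXL genes with known substrates had intervals that included 0. FBXL2, which is anchored in membranes by a lipid, was at 15.9 to 23.9 CPM in positive and 9.6 to 17.1 CPM in negative cells (log2 fold change 0.42, 95% interval -0.08 to 0.93; 0.28 without negative 2). FBXL12 rested on 1 library. It was at 44.9 CPM in positive 1 but at 21.2, 17.3 and 15.5 CPM in positive 3, 4 and 5, and at 15.0 to 19.8 CPM in negative cells. Its log2 fold change of 0.46 (95% interval -0.22 to 1.14) became 0.01 without positive 1. FBXL15, the adaptor for the ubiquitin ligase SMURF1, was at 30.7 to 45.7 CPM in positive and 19.5 to 38.6 CPM in negative cells (0.29, 95% interval -0.22 to 0.81; 0.14 without negative 2 and 0.45 without negative 8). FBXL7, described as an adaptor for Aurora A, was at 3.41 to 8.13 CPM and 4.22 to 8.29 CPM (-0.53, 95% interval -1.28 to 0.21; -0.90 without positive 4).

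FBXL5, an iron sensor that marks the iron regulatory protein IREB2, had a log2 fold change of -0.09 (95% interval -0.47 to 0.28), and IREB2 itself one of -0.32 (-0.81 to 0.17; -0.13 without positive 1). FBXL4, which acts on the mitophagy receptors BNIP3 and BNIP3L, was at -0.11 (-0.50 to 0.27). FBXL17, which recognises wrongly paired BTB domains, was at 0.01 (-0.46 to 0.48), and FBXL20 at -0.05 (-0.51 to 0.41). The intervals of these 4 F-box genes lay between -0.51 and 0.48. FBXL14, an adaptor for SNAI1, had at most 4 counts in a library and was not tested.

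**Figure D2:**
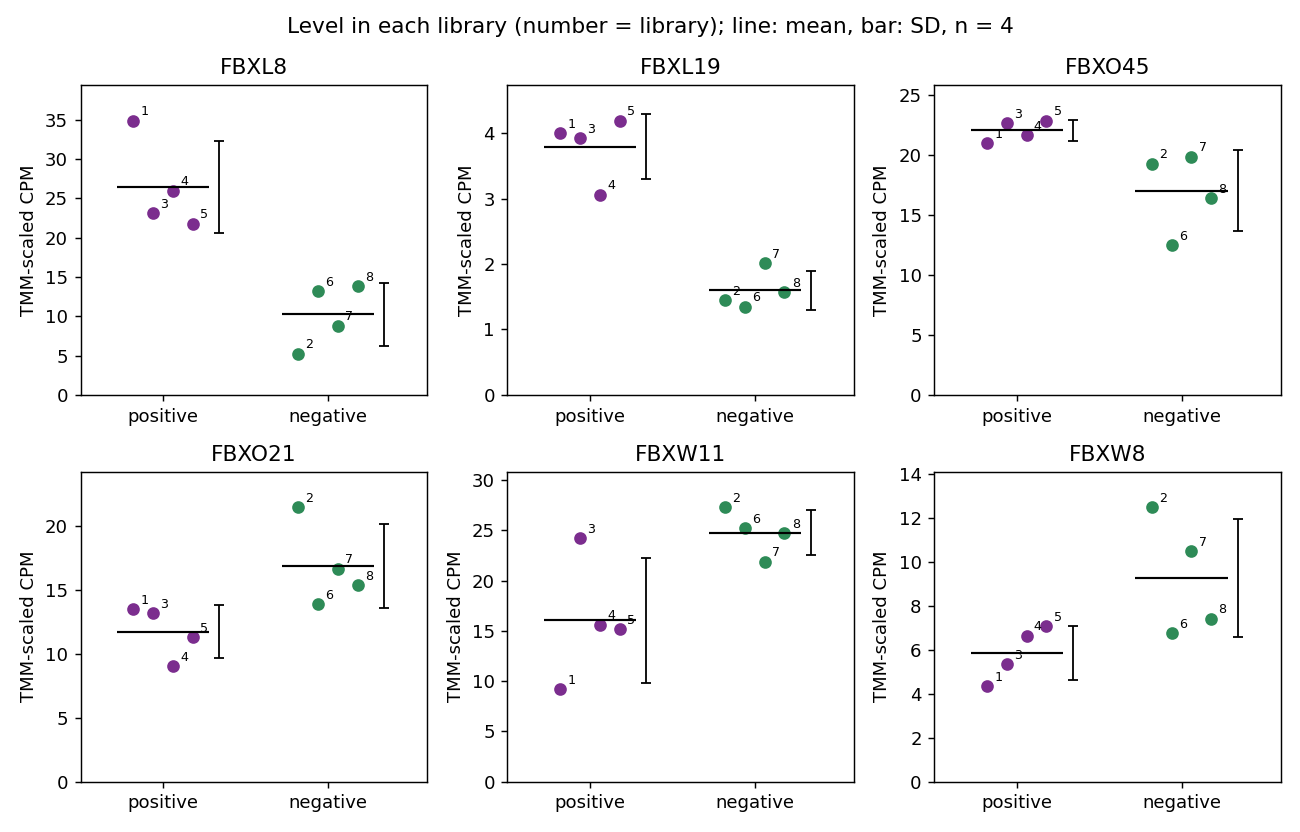
TMM-scaled CPM in each of the 8 libraries (points, with library numbers) for F-box genes that stood out, with group means as lines and SD as bars (n = 4). FBXL8, FBXL19 and FBXO45 have all positive libraries above all negative ones and FBXO21 all below, while the groups of FBXW8 and FBXW11 overlap.

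Among the FBXW genes, 2 of 7 tested had an unadjusted p under 0.05, both lower in positive cells (6.85% of all rows). FBXW11 encodes β-TrCP2, one of a pair of near-identical adaptors that bind phosphorylated β-catenin and the NF-κB inhibitor IκBα. The gene (ENSG00000072803.17) lies on the - strand of chr5 at 171861549 to 172006873. FBXW11 was at 9.18, 24.2, 15.6 and 15.2 CPM in positive 1, 3, 4 and 5, and at 27.3, 25.2, 21.9 and 24.7 CPM in negative 2, 6, 7 and 8. Positive 3 lay among the negative libraries and the other 3 positive ones below them. The means were 16.0 ± 6.17 and 24.8 ± 2.23 CPM (SD, n = 4 each) and the log2 fold change -0.62 ± 0.26 (SE; 95% interval -1.19 to -0.06). In edgeR's quasi-likelihood test the unadjusted p was 0.034 and the adjusted p 0.323 (0.251 to 0.573 over the alternatives). Leaving out positive 1 gave -0.44 for FBXW11, leaving out positive 3 gave -0.89, and leaving out both libraries that stood apart gave -0.37.

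Its paralog β-TrCP1, encoded by BTRC, does not carry an FBXW symbol and is given for comparison. BTRC was at 11, 12, 12.9 and 12.1 CPM in positive 1, 3, 4 and 5, and at 19.8, 15.2, 14.8 and 15.7 CPM in negative 2, 6, 7 and 8. No positive value reached the negative range. The log2 fold change of BTRC was -0.45 ± 0.20 (SE; 95% interval -0.87 to -0.02), and edgeR's quasi-likelihood test gave it an unadjusted p of 0.0401 and an adjusted one of 0.331; it was -0.33 without negative 2. Both β-TrCP genes were therefore lower in positive cells by estimates of similar size, neither past the threshold. Without both libraries that stood apart, BTRC was at -0.29 and FBXW11 at -0.37. Their unadjusted p in edgeR's quasi-likelihood test was then 0.155 and 0.0957. Of 2 of their substrates, CTNNB1 (β-catenin) had a log2 fold change of -0.40 (95% interval -0.91 to 0.10; -0.13 without negative 2) and NFKBIA (IκBα) one of 0.30 (-0.16 to 0.76; 0.071 without positive 1). Reads shared by the 2 near-identical genes could have been split between them by the authors' quantification.

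FBXW8 is unusual in pairing with the scaffold CUL7, and cyclin D1 and IRS1 are among its substrates. The gene (ENSG00000174989.12) lies on the + strand of chr12 at 116910956 to 117031148. FBXW8 was at 4.34, 5.36, 6.66 and 7.08 CPM in positive 1, 3, 4 and 5, and at 12.5, 6.77, 10.5 and 7.42 CPM in negative 2, 6, 7 and 8. Only positive 5 exceeded the lowest negative library, negative 6. The means were 5.86 ± 1.25 and 9.3 ± 2.69 CPM (SD, n = 4 each), and the log2 fold change was -0.66 ± 0.28 (SE; 95% interval -1.26 to -0.06). edgeR's quasi-likelihood test gave an unadjusted p of 0.0337 and an adjusted p of 0.323. The estimate for FBXW8 was -0.47 with negative 2 left out and -0.35 with positive 1 left out as well. Antisense genes overlap FBXW8, and their reads cannot be told apart without strand. A sense intronic gene, AC026368.1, overlaps FBXW8 on its own strand, where use of strand would not separate the reads.

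The estimate for its scaffold had the opposite sign. CUL7 was at 31.4, 21.4, 16.8 and 23.3 CPM in positive 1, 3, 4 and 5 and at 9.89, 13.0, 17.1 and 12.8 CPM in negative 2, 6, 7 and 8, with positive 4 just below negative 7. The log2 fold change of CUL7 was 0.81 (95% interval 0.28 to 1.34), and edgeR's quasi-likelihood test gave an unadjusted p of 0.00598 and an adjusted one of 0.309. It was 0.54 without both positive 1 and negative 2.

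The remaining FBXW genes had intervals across 0. FBXW7, the adaptor for cyclin E, MYC and NOTCH, was at 12.7, 9.02, 15.2 and 8.78 CPM in positive 1, 3, 4 and 5 and at 5.38, 9.82, 11 and 12.7 CPM in negative 2, 6, 7 and 8. The groups overlapped widely, with a log2 fold change of 0.23 (95% interval -0.41 to 0.87), and it was 0.043 without negative 2 and 0.41 without negative 8. FBXW5, which limits the centriole protein SASS6, was at 0.22 (-0.17 to 0.61; 0.34 without positive 1). FBXW2 was at -0.15 (-0.62 to 0.32), FBXW4 at -0.13 (-0.45 to 0.20) and FBXW9 at -0.29 (-0.77 to 0.19; -0.46 without positive 1). FBXW4 varied least within groups of all 51 members, with an SD of 0.11 on the log2 scale.

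FBXO is the largest and most diverse subfamily, and 1 of its 31 tested members (3.23%, against 14.4% of all rows) had an unadjusted p under 0.05. FBXO21, an adaptor for the p300 inhibitor EID1, lies on the - strand of chr12 at 117141988 to 117190531 (ENSG00000135108.14). FBXO21 was at 13.5, 13.2, 9.06 and 11.3 CPM in positive 1, 3, 4 and 5, and at 21.5, 13.9, 16.7 and 15.4 CPM in negative 2, 6, 7 and 8. All positive libraries lay below all negative ones, although positive 1 and negative 6 were nearly equal. The means were 11.8 ± 2.06 and 16.9 ± 3.31 CPM (SD, n = 4 each) and the log2 fold change -0.52 ± 0.22 (SE; 95% interval -1.01 to -0.04). The unadjusted p was 0.0365 and the adjusted p 0.324 in edgeR's quasi-likelihood test. The estimate was -0.37 without negative 2 and -0.43 without both libraries that stood apart.

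FBXO45, which works with the ligase MYCBP2 in place of CUL1, lies on the + strand of chr3 at 196568611 to 196589059 (ENSG00000174013.7). FBXO45 was at 21.0, 22.7, 21.7 and 22.9 CPM in positive 1, 3, 4 and 5, and at 19.3, 12.5, 19.9 and 16.4 CPM in negative 2, 6, 7 and 8. All positive libraries were above all negative ones, with little spread among them (22.1 ± 0.897 against 17.0 ± 3.38 CPM, SD, n = 4 each). The log2 fold change was 0.37 (95% interval -0.06 to 0.81), and edgeR's quasi-likelihood test gave it an adjusted p of 0.394. The unadjusted p in that test was 0.0866. With totals alone the estimate was 0.50, at an unadjusted p of 0.0268 in the same test. Without negative 6 it was 0.25, at an unadjusted p of 0.248 in the same test. FBXO45 overlaps WDR53 on the other strand, which was at 0.914 ± 0.393 and 0.488 ± 0.458 CPM (SD, n = 4 each) and not tested.

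FBXO7, whose loss causes a hereditary parkinsonism, was at 78.9, 149, 123 and 145 CPM in positive 1, 3, 4 and 5, and at 209, 167, 147 and 137 CPM in negative 2, 6, 7 and 8. The extremes were the 2 libraries that stood apart, and the others overlapped. Its log2 fold change was -0.41 (95% interval -0.89 to 0.07) and -0.25 without positive 1. FBXO3 had a log2 fold change of -0.27 (-0.71 to 0.17), and -0.13 without positive 1.

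FBXO2, FBXO6, FBXO17, FBXO27 and FBXO44 share a domain that binds sugar chains or a relative of it. FBXO17 was at 168 CPM in positive 1, at 93.3, 104 and 82.3 CPM in positive 3, 4 and 5, and at 79.5 to 94.7 CPM in negative cells. Positive 1 alone stood far above the rest, and the log2 fold change of 0.39 (95% interval -0.08 to 0.87) was 0.13 without it. FBXO6 likewise had its highest value in positive 1, at 23.4 CPM, with 11 to 15.3 CPM in the other 7 libraries (0.30, 95% interval -0.24 to 0.84; 0.05 without positive 1). FBXO44 was at 0.26 (-0.50 to 1.02; 0.061 without positive 3), FBXO2 at 0.01 (-0.80 to 0.83) and FBXO27 at 0.01 (-0.63 to 0.64). The intervals of all 5 included 0, and the sign of FBXO2 turned in 7 of 18 alternatives.

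FBXO5 (EMI1), an inhibitor of the anaphase-promoting complex, was at 25, 16.2, 25 and 17.7 CPM in positive 1, 3, 4 and 5 and at 27.8, 19.3, 22.1 and 27.4 CPM in negative 2, 6, 7 and 8. The groups overlapped, with a log2 fold change of -0.20 (95% interval -0.68 to 0.28; -0.098 without positive 3). FBXO4 and FBXO31, both described as adaptors for cyclin D1, were at 0.33 (-0.35 to 1.0; 0.18 without negative 2 and 0.51 without negative 6) and 0.00 (-0.59 to 0.59). FBXO31 was highest in positive 1 (25.7 CPM) and lowest in positive 5 (11.3 CPM), so the positive group spanned all negative values. FBXO18, a DNA helicase, was at -0.36 (-1.19 to 0.47; -0.22 without negative 2) on at most 13 counts per library.

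FBXO22, an adaptor for the histone demethylase KDM4A and the repressor BACH1, was at 12.9 to 25.9 CPM in positive and 16.2 to 27.0 CPM in negative cells (log2 fold change -0.30, 95% interval -0.84 to 0.24; -0.49 without positive 1 and -0.14 without positive 4). FBXO11, which targets the repressor BCL6, was at 37.4 to 51.1 and 37.7 to 51.9 CPM, with a log2 fold change of -0.01 (-0.39 to 0.37) that was above 0 under both other scalings named. FBXO32 (atrogin-1), a marker of muscle wasting, was at 0.44 (-0.30 to 1.19; 0.12 without positive 3), FBXO38 at 0.07 (-0.45 to 0.59) and FBXO42 at -0.16 (-0.56 to 0.25). The groups of these 5 genes overlapped.

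The 6 members not tested were FBXL14, FBXL21, FBXO24, FBXO41, FBXW10 and FBXW12, none above 16 counts in any library. FBXL21, which GENCODE annotates as a unitary pseudogene in humans, had 0 counts in negative 8, which allows up to 0.454 CPM, and FBXW12 had 0 in negative 7, which allows up to 0.444 CPM. These limits, from 3 counts of the library total, cover counting error only.

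**Figure D3:**
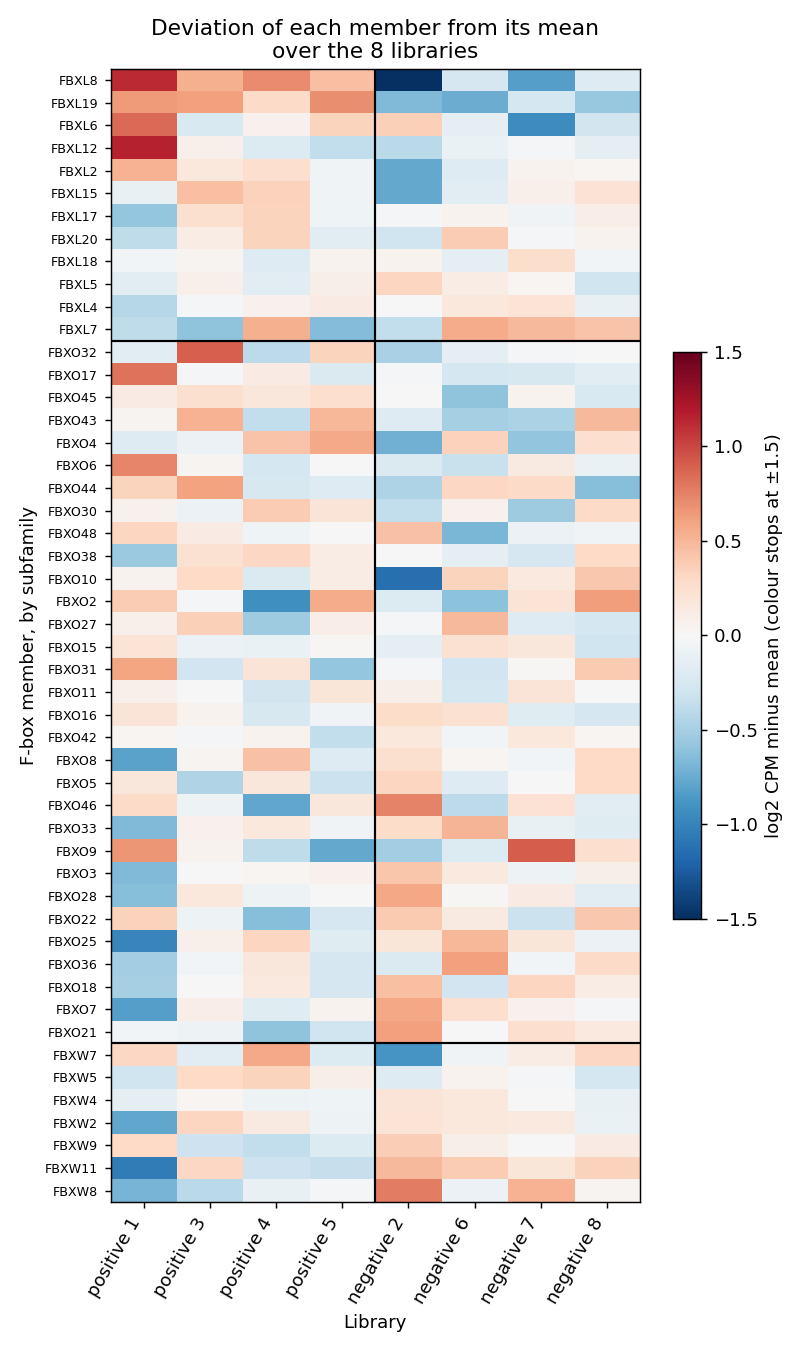
Colours show, for 50 of the 51 tested F-box genes (rows, by subfamily) and 8 libraries (columns), log2 CPM minus the mean of the gene over the libraries. Positive 1 and negative 2 hold the highest or lowest value of 25 and 23 of the 51 genes, more than any other library.

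The 2 libraries that stood apart over all rows also held more extreme values of members than any other library. Positive 1 had the highest value of 7 members and the lowest of 18, so 49.0% of members were extreme there, and negative 2 had the highest of 15 and the lowest of 8 (45.1%). The other 6 libraries were each extreme for 11.8% to 29.4% of members. The median SD within groups was 0.35 on the log2 scale for members, and the largest, 0.62, was that of FBXO9. Without both positive 1 and negative 2 there were 5 members at an unadjusted p under 0.05 in edgeR's quasi-likelihood test, all higher in positive cells. That was 9.8% of members, beside 10% of all rows in the same fit. The 5 included FBXL8 (1.0 on the log2 scale), FBXL19 (1.19), FBXO45 (0.48) and FBXW5 (0.33), whereas FBXO21, FBXW8 and FBXW11 were not among them.

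The other subunits of SCF and CUL7 ligases had estimates on both sides of 0. Of 6 genes, 3 (CUL7, GLMN and RBX1) had an unadjusted p under 0.05 (14.4% of all rows), and the median log2 fold change was -0.15. GLMN, which caps RBX1 and holds the ligase inactive, was at 12.5, 6.01, 7.73 and 8.78 CPM in positive 1, 3, 4 and 5 and at 3.64, 2.88, 3.71 and 6.42 CPM in negative 2, 6, 7 and 8. Only positive 3 lay below negative 8. The log2 fold change of GLMN was 1.06 (95% interval 0.36 to 1.76), and edgeR's quasi-likelihood test gave an adjusted p of 0.309.

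RBX1, the RING subunit, was at 90.1, 109, 82.6 and 114 CPM in positive 1, 3, 4 and 5 and at 267, 115, 131 and 116 CPM in negative 2, 6, 7 and 8. The groups did not overlap, but only negative 2 was far from the rest. Its log2 fold change of -0.67 (95% interval -1.25 to -0.09) was -0.27 without negative 2. SKP1 was at -0.39 (-0.82 to 0.04; -0.25 without positive 1), CUL1 at -0.17 (-0.54 to 0.21; -0.055 without negative 2) and RNF7, the second RING subunit, at -0.13 (-0.47 to 0.21). The linker and the main scaffold thus had estimates below 0 that their intervals did not separate from it.

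**Figure D4:**
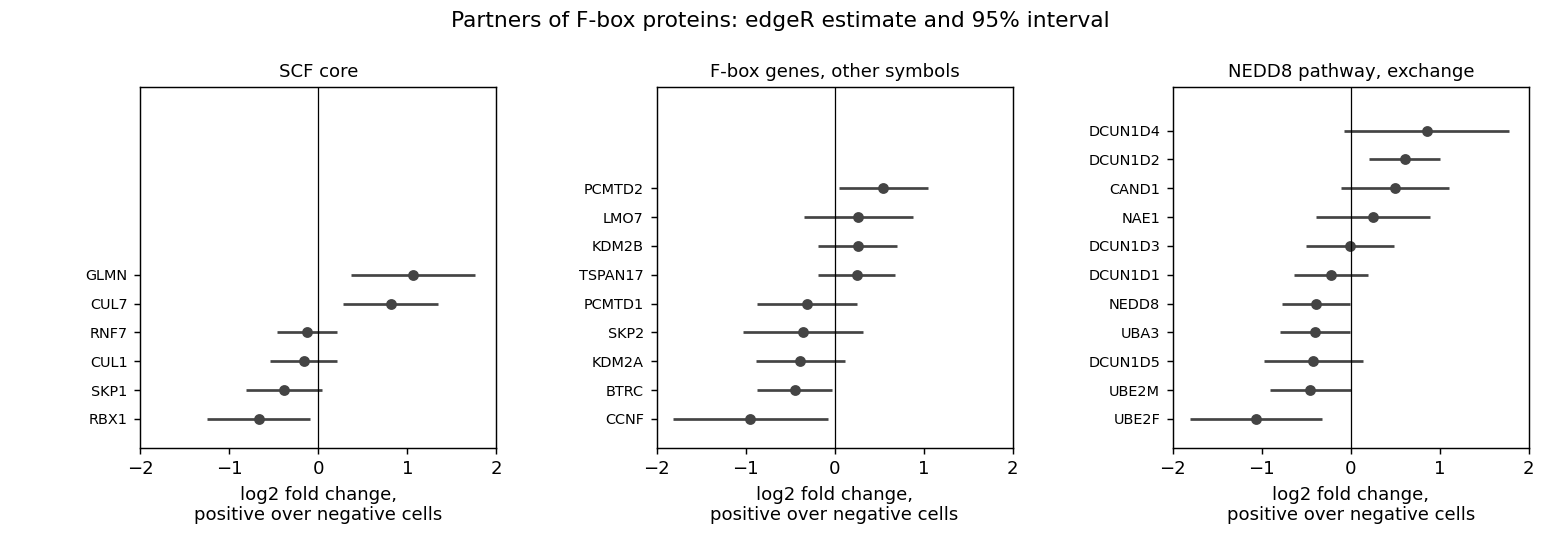
Log2 fold change (positive over negative cells) of SCF and CUL7 ligase subunits (left) and F-box or related genes with other symbols (middle). NEDD8 pathway and exchange genes are on the right. Points are edgeR estimates and bars 95% intervals over 4 against 4 libraries. CUL7, GLMN, PCMTD2 and DCUN1D2 lie above 0, and RBX1, CCNF, BTRC, UBE2F, UBE2M, UBA3 and NEDD8 below, with intervals that exclude 0.

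Of 13 F-box or related genes known by other symbols, 10 had a row under these symbols and 9 were tested. FBH1, which is on this list, had its row as FBXO18 and is counted among the members instead. Of the 9, 3 had an unadjusted p under 0.05 (1 higher and 2 lower, against 14.4% of all rows in either direction). The median was -0.31. PCMTD2, a methyltransferase relative with a cullin-binding box, was at 74.2 to 78.3 CPM in all positive libraries and at 28.9, 65.0, 49.2 and 65.3 CPM in negative 2, 6, 7 and 8 (log2 fold change 0.55, 95% interval 0.05 to 1.05; 0.36 without negative 2). CCNF (cyclin F) was at 2.53 to 3.67 CPM in positive and 2.71 to 10.8 CPM in negative cells. Its log2 fold change of -0.95 (95% interval -1.82 to -0.08) was -0.45 without negative 2. SKP2, the adaptor for the CDK inhibitor CDKN1B, was at 25.2 to 34.1 CPM in positive cells and at 61.4, 17.8, 32.6 and 29.9 CPM in negative 2, 6, 7 and 8. Negative libraries spanned all positive values, and its log2 fold change of -0.35 (95% interval -1.02 to 0.32) was 0.069 without negative 2 and -0.58 without negative 6.

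The paralogs of FBXL19 were KDM2A at -0.38 (95% interval -0.89 to 0.12; -0.21 without negative 2) and KDM2B at 0.26 (-0.18 to 0.71; 0.092 without positive 1), both with overlapping groups. TSPAN17 was at 0.25 (-0.18 to 0.68; 0.38 without positive 1), PCMTD1 at -0.31 (-0.87 to 0.25; -0.10 without positive 1) and LMO7 at 0.26 (-0.35 to 0.88; -0.097 without positive 1). NCCRP1 had at most 4 counts in a library and was not tested.

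Genes of the NEDD8 pathway, which activates cullins, had estimates below 0 for 7 of 11 tested. Of the 11, 5 had an unadjusted p under 0.05 (1 higher, 4 lower; 14.4% of all rows in either direction), and the median was -0.22. UBE2F, the NEDD8-conjugating enzyme paired with RNF7, was at 8.68, 23.8, 21.7 and 25.6 CPM in positive 1, 3, 4 and 5 and at 64.0, 26.9, 45.2 and 31.5 CPM in negative 2, 6, 7 and 8. The groups did not overlap, with a log2 fold change of -1.07 (95% interval -1.81 to -0.33; -0.77 without negative 2) and an adjusted p of 0.309 by edgeR's quasi-likelihood test. DCUN1D2, which promotes NEDD8 transfer, was higher in all positive libraries (66.9 to 102 CPM) than in any negative one (46.8 to 60.7 CPM), at 0.60 (0.20 to 1.0). UBA3, NEDD8 and UBE2M were at -0.40, -0.39 and -0.46, and at -0.24, -0.26 and -0.23 without negative 2. The summed level of the list was 673 to 731 CPM in positive and 732 to 969 CPM in negative libraries.

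The COP9 signalosome, which removes NEDD8 from cullins, had 1 of 10 tested genes at an unadjusted p under 0.05 (14.4% of all rows) and a median of -0.08. COPS4 was at 13.9 to 27.7 CPM in positive and 9.57 to 16.9 CPM in negative cells (log2 fold change 0.63, 95% interval 0.05 to 1.21). COPS6 was at -0.34 (-0.83 to 0.15; -0.056 without negative 2). Of 12 ubiquitin-conjugating enzymes and cofactors used by SCF ligases, 4 had an unadjusted p under 0.05, all lower (6.85% of all rows), with a median of -0.26. UBE2D3 was at 138 to 166 CPM in positive and 148 to 302 CPM in negative cells (-0.53, 95% interval -0.98 to -0.08; -0.30 without negative 2). UBE2G1 was at 70.9 to 152 and 147 to 220 CPM (-0.56, -1.07 to -0.05; -0.36 without positive 1). CKS1B and UBE2L3, also among the 4, were at -0.80 and -0.46, and at -0.20 and -0.26 without negative 2. CKS1B was at 458 CPM in negative 2 and at 137 to 164 CPM in the other negative libraries. Positive and negative libraries overlapped for all 12, and did not overlap for 9.14% of all rows.

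Transcripts of known SCF substrates had estimates on both sides of 0, with 10 above and 17 below. Of these 27, 3 had an unadjusted p under 0.05 (11.1%, against 14.4% of all rows), with a median of -0.17. PER1, a clock gene whose protein is a β-TrCP substrate, was at 82.9 CPM in positive 1, at 16.3, 19.2 and 10.6 CPM in positive 3, 4 and 5 and at 10.3 to 12.4 CPM in negative cells (log2 fold change 1.51, 95% interval 0.34 to 2.69). Without positive 1 it was 0.45. NFE2L2 (NRF2) was at 54.6 to 77.0 CPM in positive and 72.6 to 106 CPM in negative cells (-0.51, -0.92 to -0.11). These are transcript levels, and protein turnover was not measured.

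For comparison, other adaptor families of cullin ligases were counted in the same way. Of 18 tested KLHL genes, which serve CUL3, 1 had an unadjusted p under 0.05 (5.56%) and none had groups that did not overlap, with a median log2 fold change of -0.05. Of 11 tested DCAF genes, which serve CUL4, 1 had an unadjusted p under 0.05 (9.09%), and 1 had groups that did not overlap, with a median of 0.17. The shares of F-box genes (9.8%) and of all tested rows (14.4%) stand beside these, and for groups that did not overlap 7.84% and 9.14%. The differences between families were not tested. FBXL8 and FBXL19, at 1.36 and 1.24, were the only genes of the 3 families above the 95th percentile of all tested rows (0.82) apart from DCAF16 at 1.02.

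**Figure D5:**
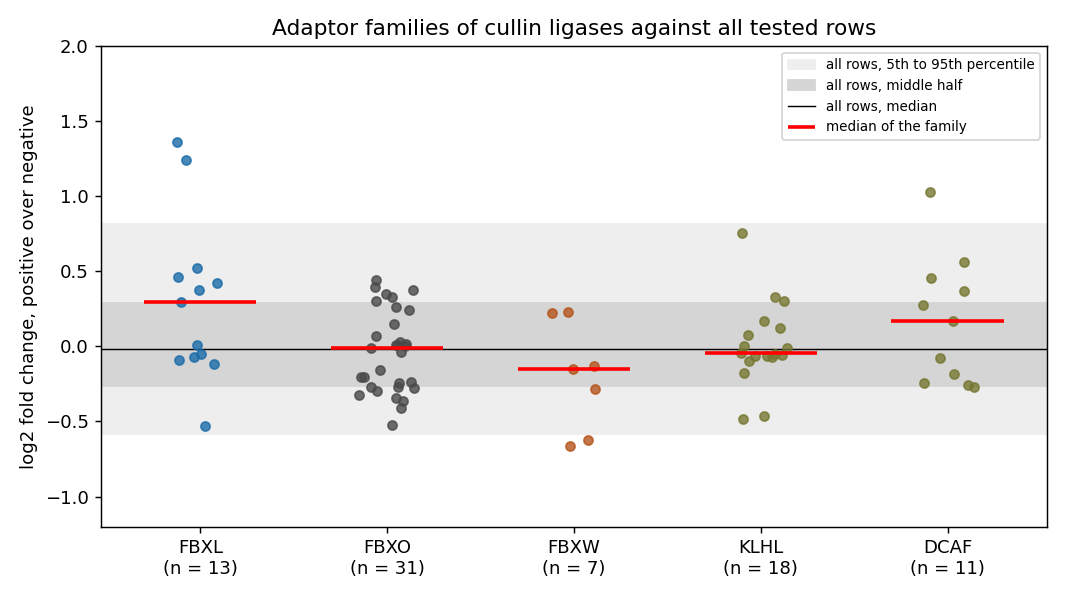
Each point is the log2 fold change (positive over negative cells) of a tested gene of the FBXL, FBXO, FBXW, KLHL or DCAF families; red lines are family medians and grey bands the 5th to 95th and 25th to 75th percentiles of all tested rows. Family medians lie between -0.15 and 0.29, and FBXL8 and FBXL19 are the highest points.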

How the data were processed

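Gene-level RNA was measured in 8 libraries made with a targeted amplicon kit from sorted A549 cells, per the labels' protocols. The authors deposited estimated counts per gene, already whole numbers, from fastp 0.20.1 and Salmon 1.9 on GRCh38, per the submitters' processing notes. The sources used here do not give the transcript annotation, the use of strand, the summing to genes or any filter on rows. An amplicon kit reads a short stretch of each transcript, and its reads carry no molecular identifiers, so intervals and floors cover counting error or spread between libraries only.

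Libraries were grouped by their labels, and every pair differed by more than sampling noise (chi-square of at least 8.44 per degree of freedom). Rows were kept with filterByExpr (minimum count 10, minimum total 15), scaled by TMM and tested across all 11351 kept rows with edgeR 4.0.16 (quasi-likelihood test, robust estimation, R 4.3.3) and Benjamini-Hochberg adjustment at 0.05. The script was tested on simulated data. An SE is the size of the log2 fold change divided by the square root of F. Alternatives were other scalings and filters, DESeq2 1.42.0, limma 3.58.1 with voom, thinning, summing of the rows of a symbol (58 symbols stood on several rows, none an F-box gene), and leaving out libraries.

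All 57 members matched GENCODE v29, FBXO18 through a synonym, and 40 overlap another gene. Pseudogenes FBXW4P1 and FBXW11P1 were left out. Members with values are those with an unadjusted p under 0.05 or groups that do not overlap, in each subfamily the 3 of highest level and the 3 of smallest p, and members with well known substrates. Of the pathway lists, all subunits and F-box or related genes of other symbols, and elsewhere the 2 of smallest p, are named. IREB2, CTNNB1, NFKBIA, UBA3, NEDD8, UBE2M, DCAF16 and the overlap partners were added after their values were seen. So were CKS1B, UBE2L3, CDC20, FBXL7, FBXO9, FBXO27, FBXO43 and FBXO44. Members and lists were chosen with earlier results of these data known. The values of 1 tested member are not reported here, although it stays in all counts and medians.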

Additional observations from a re-analysis of the deposited data

Results flagged for a closer look

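FBXO3, an adaptor for FBXL2, was at 29 CPM in positive 1 and at 46.3 to 48.2 CPM in positive 3, 4 and 5. The gap between positive 1 and the next library was large for a group of 4. The log2 fold change of FBXO3 was -0.27 with positive 1 and -0.13 without it. Of 68 groups of 4 libraries looked at in this way, this was the only 1. Chance alone gives about 1 group in 20, which is more than was found, so nothing is read from it.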

How the results depend on the processing

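No paired analysis was possible because each library number occurs once. Under every one of the 17 to 19 alternatives that gave a value, 45 of 58 named genes kept the sign of their fold change. Among them were FBXL8, FBXL19, FBXO21, FBXO45, FBXW8 and FBXW11, which had been named for a low p or separate groups in the same libraries. For FBXL8, FBXL19, FBXO21 and FBXO45, whose groups did not overlap, leaving out libraries could hardly turn the sign. Their kept signs are therefore no separate support. Depth limits members with few counts, such as FBXL19 and FBXO18, and the untested ones. At an unadjusted p under 0.05 there were 3 members, 0 of them lower, with upper quartile scaling, and 4 higher and 0 lower with library totals alone. There were 3, of them 1 higher, where at least 50 counts were required (fewer genes tested). Voom gave 4 higher and 3 lower, and leaving out both positive 1 and negative 2 gave 5 higher and 0 lower. DESeq2's Wald test put 1 member, FBXL8, past the adjusted threshold, at a log2 fold change of 1.37. The FBXO median was 0.059 with upper quartile scaling and 0.11 with totals alone, the FBXW median -0.031 with totals alone, and the FBXL median 0.12 with voom. Leaving out 1 library at a time gave 3 to 6 members (6 without positive 1, 3 without negative 7), 2 to 4 of them higher and 1 to 2 lower, and medians of 0.14 to 0.45 (FBXL), -0.097 to -0.0090 (FBXO) and -0.23 to -0.10 (FBXW). The cause of these changes was not tested.

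Signs turned in 13 genes, at values from -0.28 (FBXO31, with voom) to 0.12 (SKP2, without both positive 1 and negative 2). With totals alone these were FBXL20 (0.055), FBXL4 (0.0017), FBXL5 (0.038) and FBXO11 (0.11), with upper quartile scaling FBXL20 (0.013) and FBXO11 (0.059), and with the higher count filter FBXO11 (0.040). With voom they were FBXL5 (0.045), FBXO2 (-0.12), FBXO31 (-0.28), FBXW2 (0.036), FBXW7 (-0.087) and LMO7 (-0.060). Without a filter they were FBXL17 (-0.0021), FBXO2 (-0.0015) and FBXO31 (-0.017), and with thinning FBXL17 (-0.0050) and FBXO11 (0.0045). Without both positive 1 and negative 2 they were FBXL12 (-0.047), FBXL5 (0.067), FBXO11 (0.010), FBXO2 (-0.17), FBXO31 (-0.25), FBXW2 (0.084), FBXW7 (-0.0057), LMO7 (-0.15) and SKP2 (0.12). Leaving out 1 library at a time, the log2 fold changes ranged from -0.17 to 0.078 for FBXL20, -0.30 to 0.031 for FBXW2, -0.20 to 0.30 for FBXO2, -0.24 to 0.17 for FBXO31, -0.10 to 0.45 for LMO7, -0.10 to 0.17 for FBXL17, -0.10 to 0.085 for FBXO11, -0.0098 to 0.23 for FBXO38, -0.17 to 0.021 for FBXL5 and -0.58 to 0.069 for SKP2.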

Other observations

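The anaphase-promoting complex is the ligase that FBXO5 (EMI1) inhibits. Of 16 tested subunits and activators, 5 had an unadjusted p under 0.05 in edgeR's quasi-likelihood test, all lower in positive cells (6.85% of all rows), and the median log2 fold change was -0.06. With PLK1 and E2F1, which the list also holds, there were 6 of 18 and a median of -0.17. The groups did not overlap for 3 of the 18, all lower (4.14% of all rows). CDC20, among the 5, was at 24.0 to 43.5 CPM in positive cells and at 162 CPM in negative 2. In the other negative libraries CDC20 was at 29.3 to 55.7 CPM. The counts for this list were not repeated under other scalings or without negative 2. CDC23, a scaffold subunit, was at 7.84, 16.1, 11.1 and 15.5 CPM in positive 1, 3, 4 and 5, and at 36.6, 17.1, 22.4 and 20.8 CPM in negative 2, 6, 7 and 8. The groups did not overlap, and the log2 fold change was -0.94 (95% interval -1.57 to -0.31; -0.65 without negative 2). PLK1, a mitotic kinase that primes EMI1 for degradation through β-TrCP, was at 31.2 to 53.0 CPM in positive cells, at 157 CPM in negative 2 and at 49.1 to 59.0 CPM in the other negative libraries. Its log2 fold change of -1.08 (95% interval -1.86 to -0.30) was -0.48 without negative 2. FBXO43 (EMI2), the relative of EMI1 that acts in meiosis, was at 3.2 to 6.14 CPM in positive and 2.88 to 5.99 CPM in negative cells. No gene of this list passed the adjusted threshold.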
